A study of Mus musculus with 8 samples.

Results

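Silencing of retrotransposons at the level of chromatin was described here through 10 genes: Setdb1, Trim28, Resf1, Atf7ip, Mphosph8, Morc2a, Pphln1, Atrx, Daxx and Ehmt2. They were taken by name, each symbol matched 1 gene of the 55487 in the count table, and all 10 had enough reads to be tested. RNA had been sequenced from fetal mouse testis (C57BL/6 strain) germ cells sorted by fluorescence, in 8 libraries of 16346977 to 20311338 counts. The 4 libraries labelled WT came from Oct4-eGFP+/+ littermates and the 4 labelled KO from Rhox10-null;Oct4-eGFP+/+ animals, so that the reporter, a green fluorescent protein driven by sequences of the Oct4 gene, was shared by both groups. Rhox10 is an X-linked homeobox gene. The fetal age, the number of animals behind a library and the part of Rhox10 that the null allele lacks are not given in the sources used here, and p-values therefore measure the spread between libraries, which may be technical.

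As background, the methylation of histone H3 on lysine 9 (H3K9) marks chromatin that is kept silent. SETDB1 and EHMT2 (G9a) are enzymes that place it, and TRIM28 (KAP1) brings SETDB1 to DNA bound by KRAB zinc finger proteins. The HUSH complex (human silencing hub) binds the mark and, with MORC2 and SETDB1, silences young LINE1 elements and transgenes in cultured human and mouse cells. ATRX and DAXX place the histone variant H3.3 at repeats. In fetal male germ cells DNA methylation is erased and then rebuilt, and histone marks are among the means that hold retrotransposons down in between.

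The labels were checked against the targeted gene and against markers. Rhox10 was read in every library, at 1.08, 1.24, 1.00 and 0.983 CPM (counts scaled to library size and composition) in WT replicates 1 to 4 and 0.856, 0.598, 0.945 and 1.13 CPM in KO replicates 1 to 4. These values overlapped and did not separate the labels (edgeR adjusted p = 0.767, log2 fold change -0.28). The germ cell genes Ddx4 (44.5 ± 3.40 and 43.4 ± 0.971 CPM), Dazl (18.5 ± 1.82 and 23.7 ± 2.20) and Pou5f1 (10.04 ± 0.984 and 11.4 ± 0.772) were present, and of 9 germ cell markers tested 2 rose and 2 fell. Dazl was among those that rose, by 28.8% (edgeR adjusted p = 6.24e-05), and its groups did not overlap. Summed CPM per kb over a marker list was 59.7 to 66.9 for germ cells. The sums for 4 lists of other cells were higher, at 194 to 217 for Sertoli cells, 903 to 999 for Leydig cells, 933 to 975 for interstitial and mesenchymal cells and 99.6 to 293 for erythroid cells. They were lower for endothelial cells (34.6 to 39.7), epithelial tubule cells (17.2 to 38.5) and macrophages (7.97 to 11.1). The lists differ in size and in the level of their markers, with a median gene at 5.46 CPM per kb for germ cells and 118 for Leydig cells. The sums therefore do not give the share of each cell type. The 10 silencing genes are expressed in most cell types, so how much of their RNA came from germ cells was not tested, and in bulk RNA fewer cells of a type and less RNA per cell cannot be told apart. KO replicate 1 stood apart from the other libraries of its group. A chi-squared value per degree of freedom, near 1 where a pair of libraries differs by sampling noise alone, was 3.01 to 3.60 for its pairs with KO replicates 2 to 4 and 1.68 to 1.84 among those 3; pairs within the WT group gave 2.10 to 3.29.

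Of the 10 genes 3 were higher in the libraries labelled KO: Setdb1, Resf1 and Atrx. None was lower in edgeR, DESeq2 or limma voom, and the 7 others did not pass, also at an unadjusted p under 0.05. The rises were small, 7.83 to 10.2%. Genes were called at an adjusted p under 0.05 in edgeR's quasi-likelihood test over the 23190 genes tested, where 5.14% were called, 2.35% as higher and 2.80% as lower. The 10 genes were more abundant than most, so a closer background was added after the data had been seen: among the 5058 genes with a mean between 33.8 and 646.8 CPM, the range of these 10, 11.7% were called and 4.33% were called as higher. The median log2 fold change (KO over WT) of the 10 was 0.036, with 7 above 0 and 3 below, against 0.0020 over all genes tested. The median size of the log2 change, regardless of sign, was 0.049 for the 10, 0.095 over all genes and 0.046 in that range of abundance.

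The sequences before the starts of the 3 genes that rose are shown because Rhox10 encodes a homeodomain protein, and homeodomains as a class bind DNA with the core TAAT. They are from RefSeq (GRCm38.p6), 5′ to 3′ on the strand of the gene, up to 250 bases before its start; the Atrx sequence stops where the count table's first exon begins. Capitals mark TAAT and CCGGAAG, the core of many ETS factor sites, on either strand.
Setdb1, chr3:95357203-95357452, minus strand: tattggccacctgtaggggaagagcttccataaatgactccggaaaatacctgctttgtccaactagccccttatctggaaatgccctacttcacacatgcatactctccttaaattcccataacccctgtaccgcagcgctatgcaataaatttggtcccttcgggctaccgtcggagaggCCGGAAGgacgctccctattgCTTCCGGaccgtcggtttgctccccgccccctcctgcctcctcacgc
Resf1, chr6:149309164-149309413, plus strand: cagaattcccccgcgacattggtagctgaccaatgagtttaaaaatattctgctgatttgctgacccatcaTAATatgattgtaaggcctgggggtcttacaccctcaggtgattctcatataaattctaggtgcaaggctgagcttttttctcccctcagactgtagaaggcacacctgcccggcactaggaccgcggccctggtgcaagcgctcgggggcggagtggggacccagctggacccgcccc
Atrx, chrX:105929404-105929622, minus strand: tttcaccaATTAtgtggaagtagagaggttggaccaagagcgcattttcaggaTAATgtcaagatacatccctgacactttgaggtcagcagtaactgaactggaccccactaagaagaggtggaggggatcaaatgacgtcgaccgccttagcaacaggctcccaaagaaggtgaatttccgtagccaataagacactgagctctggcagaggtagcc

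TAAT stood once in the Resf1 window, 179 bases before the start, and in the Atrx window at 242 and 197 bases, and the Setdb1 window held none. Over the 10 genes, 3 of the 15 RefSeq start sites had it (Resf1, Atrx and 1 of the 2 starts of Morc2a), against 54.9% of all 32851 promoter windows of 250 bases in the table. CCGGAAG stood in the Setdb1 window at 68 and 47 bases before the start; 5 of the 15 windows held it (Setdb1, Daxx and Pphln1), against 6.91% of all windows. The 15 windows were richer in GC than most, with a median GC content of 67.2% (26.4 to 84.0%) against 52.4% over all windows, and how far this accounts for either share was not tested. The windows of 1 gene partly overlap where it has several starts, and a match is a run of letters, not a bound site. An annotated transcript of uncertain status, Gm37500, runs through the Setdb1 window on the opposite strand.

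The H3K9 methyltransferase gene Setdb1 (chromosome 3, 95323525 to 95357202, GRCm38) encodes the enzyme on which TRIM28 and HUSH both draw. Its levels were 89.98, 85.14, 91.84 and 90.57 CPM in WT replicates 1 to 4 and 100.9, 95.07, 98.76 and 96.76 CPM in KO replicates 1 to 4. Every library labelled KO lay above every library labelled WT, with WT replicate 2 the lowest and KO replicate 1 the highest. The log2 fold change was 0.13 (standard error 0.036, 95% interval 0.062 to 0.20), a rise of 9.55% (edgeR adjusted p = 0.00890). Without WT replicate 2 the log2 fold change was 0.11 and the call was lost (adjusted p = 0.0938). Groups that did not overlap, with KO higher, were seen for 2 of the 10, Setdb1 and Atrx. Over all genes tested 9.44% did not overlap, 4.72% with KO higher, and in the same range of abundance 7.53% with KO higher.

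Resf1 (chromosome 6, 149309414 to 149335663) encodes a partner of SETDB1 that acts in retroviral silencing in mouse embryonic stem cells. Its levels were 92.75, 86.88, 86.05 and 86.35 CPM in WT replicates 1 to 4 and 104.6, 96.57, 88.58 and 98.40 CPM in KO replicates 1 to 4. The groups overlapped, because KO replicate 3 lay below WT replicate 1. The log2 fold change was 0.14 (standard error 0.036, 95% interval 0.068 to 0.21), a rise of 10.2% (edgeR adjusted p = 0.00572). This was the largest fold change of the 10 and the least firmly called of the 3: the adjusted p was 0.100 without KO replicate 1, 0.0586 with DESeq2 and 0.0856 with limma voom.

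Atrx (chromosome X, 105797615 to 105929403) encodes a chromatin remodeller that, with DAXX, deposits H3.3 at telomeres, pericentromeric repeats and retroviral elements. Its levels were 622.0, 617.8, 610.4 and 639.6 CPM in WT replicates 1 to 4 and 691.2, 674.4, 661.7 and 657.6 CPM in KO replicates 1 to 4. The groups did not overlap, and KO replicate 1 was again the highest. The log2 fold change was 0.11 (standard error 0.020, 95% interval 0.069 to 0.15), a rise of 7.83% (edgeR adjusted p = 1.49e-05). Atrx had the most reads of the 10, 10335 to 12832 counts a library, and its call held under all 18 alternatives tried. With GC content and gene length corrected for by an offset its log2 fold change was 0.070, over 1.5 times smaller (adjusted p = 0.0120). The same offset also lowered the log2 fold changes of Setdb1, to 0.116 (edgeR adjusted p = 0.0283), and Resf1, to 0.112 (0.0473).

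**Figure D1:**
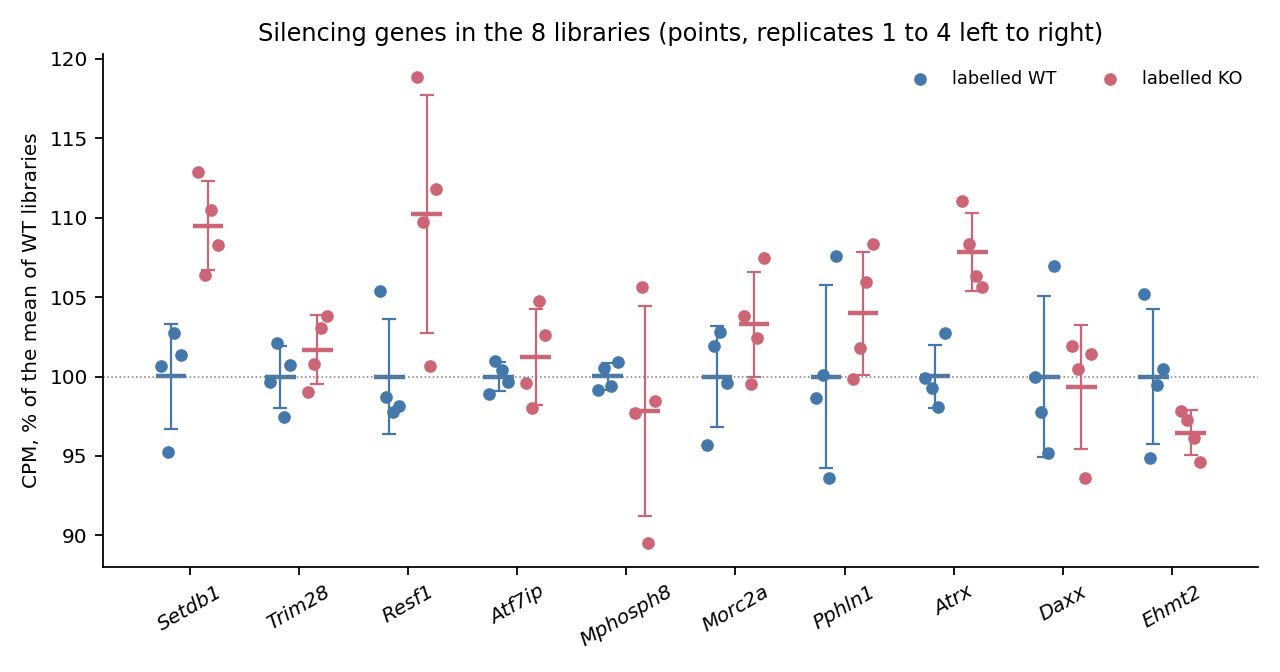
Abundance of the 10 genes in each library, in CPM as a percentage of the mean of the libraries labelled WT (y axis, not starting at 0), with 1 point per library, bars at the mean and whiskers of 1 SD (n = 4). Setdb1 and Atrx separate the groups, Resf1 nearly does, and the points of the other 7 genes overlap.

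KO replicate 1, the library that stood apart from its group, was the highest of the 8 libraries for each of the 3 genes that rose. Without it the log2 fold changes were 0.12 for Setdb1 (edgeR adjusted p = 0.0441), 0.10 for Resf1 (0.100) and 0.095 for Atrx (0.000282).

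Trim28 and Atf7ip, which act beside Setdb1, did not pass. Trim28, the corepressor gene, was at 220.1 ± 4.31 CPM in WT-labelled and 223.8 ± 4.75 in KO-labelled libraries (SD, n = 4), and the 95% interval of its fold, KO over WT, ran from 0.982 to 1.05 (edgeR adjusted p = 0.732). Atf7ip, whose product keeps SETDB1 in the nucleus and stable in human cells, was at 303.9 ± 2.69 and 307.7 ± 9.25 CPM, with an interval of 0.981 to 1.05 (adjusted p = 0.800). In both genes libraries of the 2 groups interleaved. As a ratio of levels per length within a library, Atf7ip to Setdb1 was 1.10 to 1.19 in WT-labelled libraries and 0.992 to 1.07 in KO-labelled ones, ranges that did not overlap. The ratio of Trim28 to Setdb1 was 3.85 to 4.35 and 3.56 to 3.89, and that of Resf1 to Setdb1 was 0.701 ± 0.0335 and 0.706 ± 0.0454 (SD, n = 4), both with overlapping ranges. Of 6 ratios between the 10 genes computed, 2 did not overlap between groups; the ratios were not tested, and each carries the change of both its genes.

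The HUSH genes did not pass either. Mphosph8, whose chromodomain protein reads methylated H3K9, was at 73.31 to 74.61 CPM in the libraries labelled WT, the tightest of the 10 genes with a coefficient of variation of 0.864%, below the 2.72% that counting alone would give. In the libraries labelled KO it spanned 66.16 CPM in replicate 3 to 78.10 CPM in replicate 2, on both sides of the WT range. Its log2 fold change was -0.034 (95% interval -0.11 to 0.045, edgeR adjusted p = 0.777) and turned positive, 0.0076, without KO replicate 3. Pphln1, which encodes periphilin, had 34.4 ± 1.99 and 35.7 ± 1.32 CPM (SD, n = 4; adjusted p = 0.693). Morc2a, the gene of an ATPase that acts at HUSH targets, had 99.2 ± 3.17 and 102.5 ± 3.27 CPM (adjusted p = 0.572). The intervals left room for a rise of up to 1.12-fold in Pphln1, 1.08-fold in Morc2a and 1.03-fold in Mphosph8.

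Daxx, the H3.3 chaperone gene that partners Atrx, did not pass. It was at 33.94, 33.20, 32.32 and 36.32 CPM in WT replicates 1 to 4 and 34.61, 34.12, 31.77 and 34.44 CPM in KO replicates 1 to 4, and the values interleaved. The log2 fold change was -0.0086 (95% interval -0.12 to 0.10, edgeR adjusted p = 0.970), and the interval of Daxx reaches into that of Atrx. The ratio of Daxx to Atrx per length was 0.366 to 0.392 in WT-labelled libraries and 0.332 to 0.362 in KO-labelled ones, without overlap and not tested. Ehmt2, the gene of the methyltransferase G9a, was at 155.5 ± 6.63 and 150.0 ± 2.20 CPM (SD, n = 4; adjusted p = 0.407, log2 fold change -0.051). All 4 libraries labelled KO lay below the WT mean of Ehmt2, but WT replicate 2, at 147.5 CPM, lay below 3 of them. Without WT replicate 1 the log2 fold change of Ehmt2 was -0.027 (edgeR adjusted p = 0.786).

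Over their whole range of levels the 10 genes differed more from each other than between groups. Some neighbours were closer: with the WT label Atrx lay nearer to Ehmt2 than to its own mean with the KO label (30.85 CPM per kb). Per kilobase of exonic length, Trim28 was the most abundant at 52.9 ± 1.04 CPM per kb with the WT label (SD, n = 4), followed by Atrx (28.6 ± 0.569), Ehmt2 (28.3 ± 1.21) and Mphosph8 (20.6 ± 0.178). Morc2a, Atf7ip and Setdb1 followed at 15.4, 14.7 and 13.0 CPM per kb, then Daxx at 10.8, Resf1 at 9.14 and Pphln1 at 7.56. The order was the same with the KO label, from Trim28 at 53.8 ± 1.14 to Pphln1 at 7.86 ± 0.291 CPM per kb. Neighbours whose libraries overlapped were Atrx with Ehmt2 and Morc2a with Atf7ip in the WT group, and Atf7ip with Setdb1 and Daxx with Resf1 in the KO group. Lengths are those of all annotated exons merged, 20726 bases for Atf7ip; how much of each length is used in these cells was not tested.

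**Figure D2:**
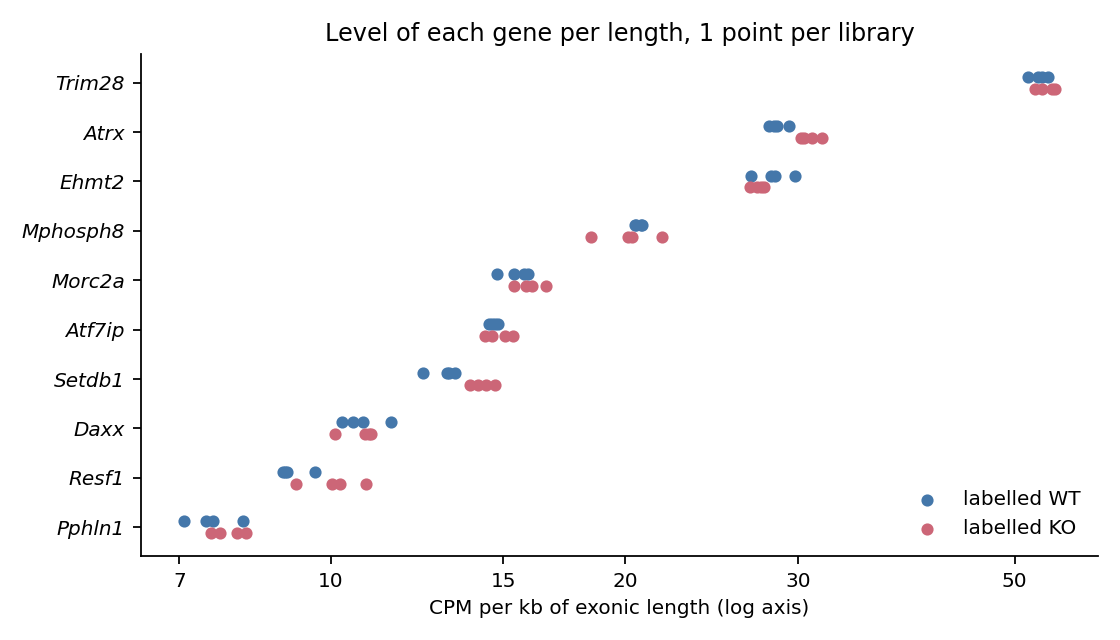
Level of each gene in CPM per kb of exonic length (x axis, logarithmic), with 1 point per library in each group. Trim28 lies near 53 CPM per kb and Pphln1 near 7.6 in WT libraries. The shift of Setdb1, Resf1 and Atrx between groups is small beside this whole span, but not beside the distance between every pair of neighbours.

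Some reads of the 10 genes may belong to transcripts that overlap them, since the use of strand in counting is not given in the sources used here. Exons of 4 of the 10 overlap those of another gene, always on the opposite strand: Setdb1 with Cers2 (75 bases) and Gm37500 (249 bases), Atf7ip with Gm44140 (83 bases), Mphosph8 with Gm16973 (384 bases, 10.7% of its length) and Morc2a with the noncoding RNA Tug1 (483 bases, 7.52%). The exons of Resf1 and Atrx overlap those of no other gene in the table. None of the 4 overlapping genes tested was called by edgeR, DESeq2 or limma voom (0 at an unadjusted p under 0.05): edgeR adjusted p was 0.838 for Cers2, 0.910 for Gm37500, 0.465 for Gm16973 and 0.969 for Tug1. Gm37500 had 127 counts over all libraries, against 13535 for Setdb1.

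The other genes of the pathway were taken as 61 genes in 7 classes, of which 60 could be tested. Of these 3 rose, 3 fell and 54 did not pass, where 5.14% of all genes and 11.7% of genes as abundant as the 10 were called. Their median log2 fold change was 0.013.

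Among 8 partners of HUSH and SETDB1, 2 rose. Smarcad1, whose remodeller acts with TRIM28 in mouse embryonic stem cells, was at 84.00 to 87.16 CPM in WT-labelled and 90.19 to 97.19 CPM in KO-labelled libraries. The groups did not overlap (log2 fold change 0.13, edgeR adjusted p = 0.00879), though the call was lost without KO replicate 3 (adjusted p = 0.0750) and with an offset for gene length (0.0574). Zfp638, whose human product recruits HUSH to unintegrated retroviral DNA, had 246.9 ± 5.65 and 260.4 ± 8.63 CPM (SD, n = 4; adjusted p = 0.0478, log2 fold change 0.076), a call that held in 5 of 18 alternatives. Fam208a, the gene of the HUSH scaffold TASOR, was at 125.1 to 127.9 and 128.7 to 135.1 CPM; these ranges did not overlap, but the log2 fold change of 0.052 did not pass (adjusted p = 0.436). It was singled out after its values were seen.

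Among 10 genes of H3.3 and its chaperones, both H3.3 genes fell and 1 chaperone gene rose. H3f3a was at 102.4 to 110.6 CPM in WT-labelled and 92.15 to 98.99 CPM in KO-labelled libraries, and H3f3b, which encodes the same protein, at 281.0 to 302.3 and 269.1 to 273.3 CPM. Neither gene's groups overlapped. The log2 fold changes were -0.16 (edgeR adjusted p = 0.000536) and -0.11 (0.000695). H3f3a and H3f3b have processed copies in the genome whose reads may be shared with them. Ubn2, a subunit gene of the HIRA complex, had a log2 fold change of 0.079 (adjusted p = 0.0386), a call that held in 6 of 18 alternatives. Atrx, at 0.11, and the H3.3 genes thus moved in opposite directions in the same libraries.

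In the other 5 classes 1 gene passed. Hdac2, a deacetylase gene of the NuRD complex, fell from 121.0 ± 3.92 to 112.0 ± 3.44 CPM (SD, n = 4; edgeR adjusted p = 0.0204, log2 fold change -0.11), a call lost on leaving out replicate 2 or 4 of either group, with DESeq2 (0.0545), with limma voom (0.0576) and with other cell markers as a covariate (0.210). It was the only call among 12 NuRD and SUMO genes. DESeq2 and limma voom made no call in the 5 classes. None of 7 other methyltransferase and G9a partner genes passed in edgeR (0 at an unadjusted p under 0.05), with Ehmt1, the partner methyltransferase of G9a, at a log2 fold change of 0.045 (adjusted p = 0.455). None of 11 H3K9 demethylase genes passed (2 at an unadjusted p under 0.05), the lowest being Kdm3a at 0.084 (adjusted p = 0.100), and none of 6 reader genes (2 unadjusted), with the HP1 gene Cbx5 at 0.071 (0.0870). Of 7 KRAB zinc finger genes 6 were tested and none passed (1 unadjusted), Zfp809, a repressor of murine leukaemia virus, having a log2 fold change of 0.17 (adjusted p = 0.308). That of Zfp809 was 0.11 without WT replicate 1 and 0.32 with other cell markers as a covariate, and edgeR did not call it in either (adjusted p = 0.671 and 0.100).

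**Figure D3:**
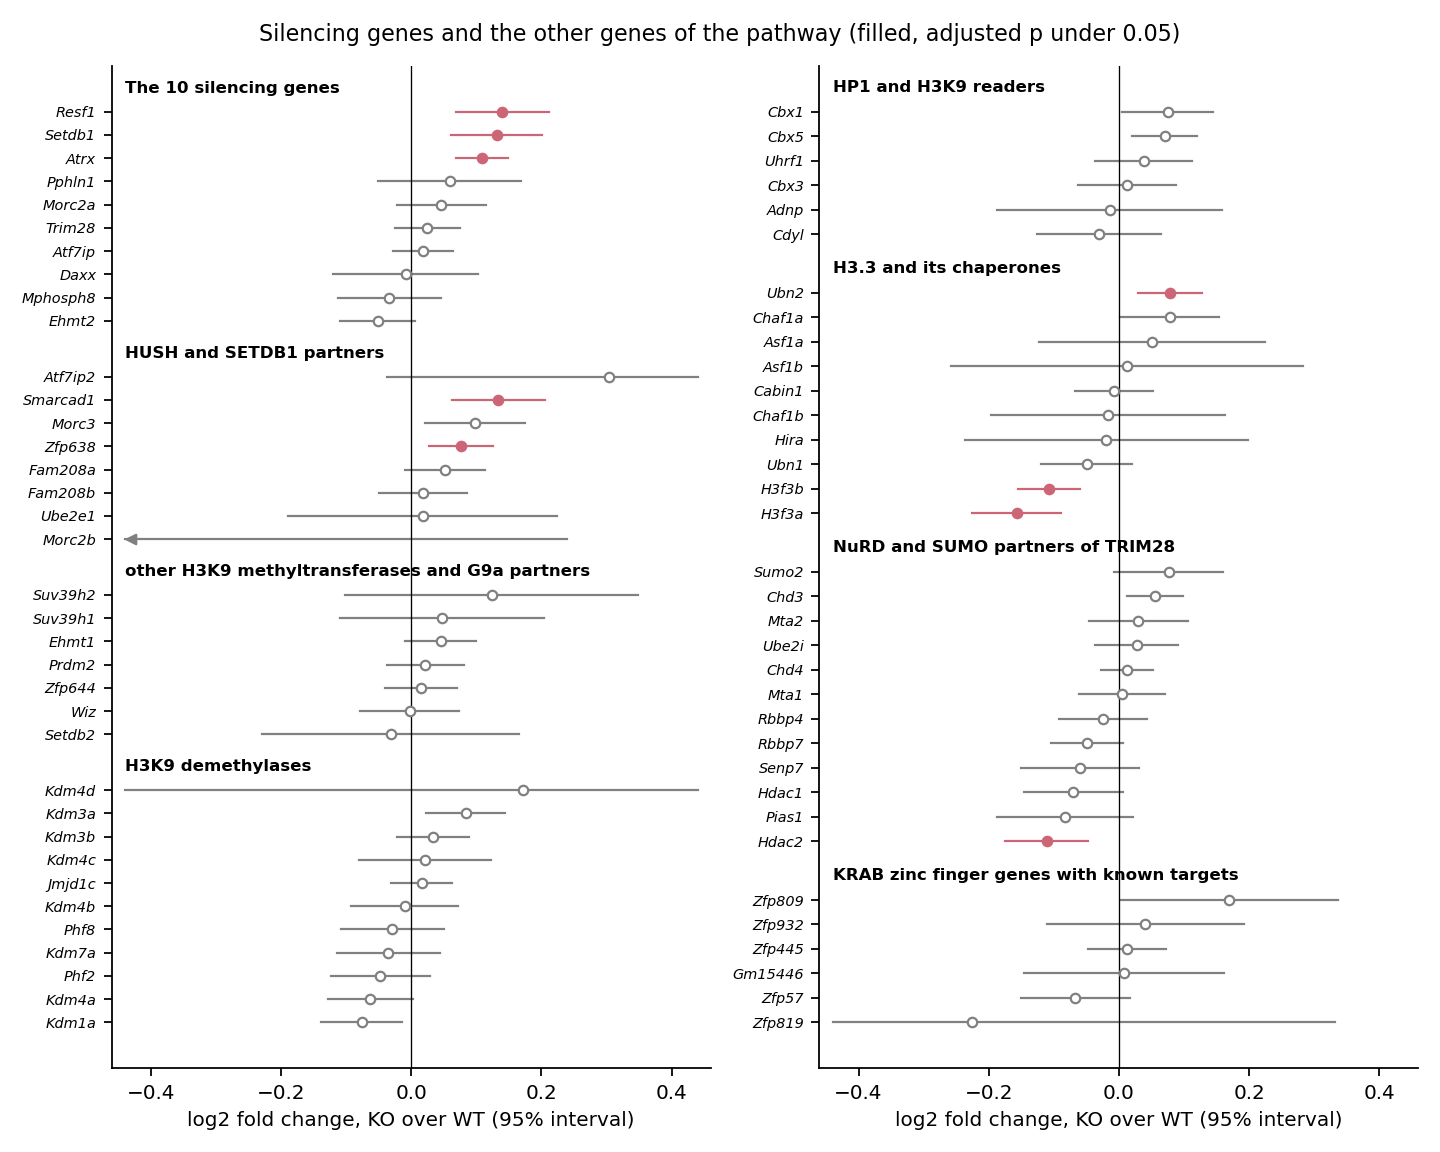
Log2 fold change, KO over WT, with its 95% interval for the 10 genes and for the 60 other genes tested, by class (intervals cut at the edge of the axis, and an arrow for Morc2b, which lies beyond it). Filled points passed at an adjusted p under 0.05: 3 rises among the 10, and 3 rises and 3 falls among the others.

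The genes whose levels across the 8 libraries lay nearest to those of Setdb1 were Cdc25a, a cell cycle phosphatase gene, Msn, which encodes moesin, and Smad5, a mediator gene of BMP signals. Their root mean square distances, on log2 CPM centred on the mean of the 8 libraries, were 0.0249, 0.0262 and 0.0276. Their log2 fold changes were 0.099, 0.12 and 0.088, and Msn was called (edgeR adjusted p = 0.0285). The genes were picked on these same libraries, so fold changes of the same sign as that of Setdb1 follow from the choice.

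**Figure D4:**
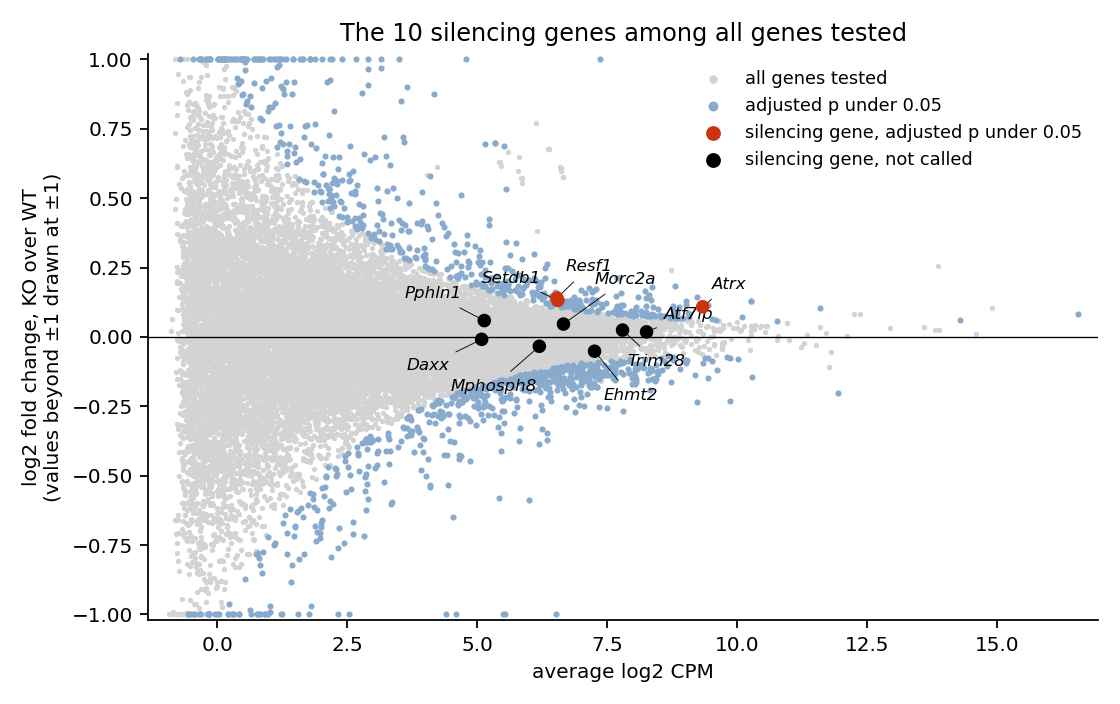
Log2 fold change (y axis, values beyond ±1 drawn at the edge) against average log2 CPM (x axis) for all 23190 genes tested, with the 10 silencing genes marked. The 10 lie among abundant genes, and Setdb1, Resf1 (overlapping points) and Atrx sit at the inner edge of the called genes.

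The summed marker lists of other cells moved with the label, some up and some down. The lists were chosen with earlier results of these data known, so the counts of markers called may follow in part from that choice. Over all genes tested 2.35% were called as higher and 2.80% as lower. All 10 epithelial tubule markers rose, from a summed 17.2 to 19.2 CPM per kb in WT-labelled to 33.8 to 38.5 in KO-labelled libraries, and 3 of 6 endothelial markers rose (34.6 to 36.3 and 37.8 to 39.7). Of 8 erythroid markers 5 fell (273 to 293 and 99.6 to 107), as did 5 of 6 Leydig markers (992 to 999 and 903 to 919) and 1 of 8 Sertoli markers (206 to 217 and 194 to 205). None of 7 mesenchymal markers passed in edgeR (2 at an unadjusted p under 0.05, and 1 called lower by limma voom). None of the 4 of 7 macrophage markers tested passed (1 unadjusted), and no listed marker was at 0 in all libraries. The sums of both lists were nonetheless lower with the KO label, without overlap. They were 963 to 975 and 933 to 962 for mesenchymal markers, and 10.3 to 11.1 and 7.97 to 9.98 for macrophage markers. The germ cell sums overlapped (59.7 to 66.6 and 61.1 to 66.9). The mean level of the 7 lists of other cells, 1 value per library, was used as a covariate. Rises and falls of the lists partly cancel in it (median log2 fold change 1.11 for epithelial tubule and -1.24 for erythroid markers). It therefore cannot adjust for each cell type. With this covariate, the log2 fold changes were 0.16 for Setdb1 (edgeR adjusted p = 0.0304), 0.11 for Atrx (0.00110) and 0.14 for Resf1, whose call was lost (0.0657). The falls of H3f3a (-0.11, adjusted p = 0.170) and Hdac2 (-0.10, 0.210) and the rises of Smarcad1 (0.12, 0.197) and Ubn2 (0.089, 0.124) lost their calls as well. H3f3b (-0.12, adjusted p = 0.0104) and Zfp638 (0.12, 0.0148) kept theirs. The covariate also widened standard errors, from 0.036 to 0.046 for Resf1 and from 0.025 to 0.032 for Ubn2. The log2 fold changes of these genes did not shrink with it (0.140 and 0.079 without it). Those of H3f3a, Hdac2 and Smarcad1 did (-0.16, -0.11 and 0.13 without it). A lost call here therefore need not mean a smaller change, and calls over all genes tested went from 1193 to 611.

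**Figure D5:**
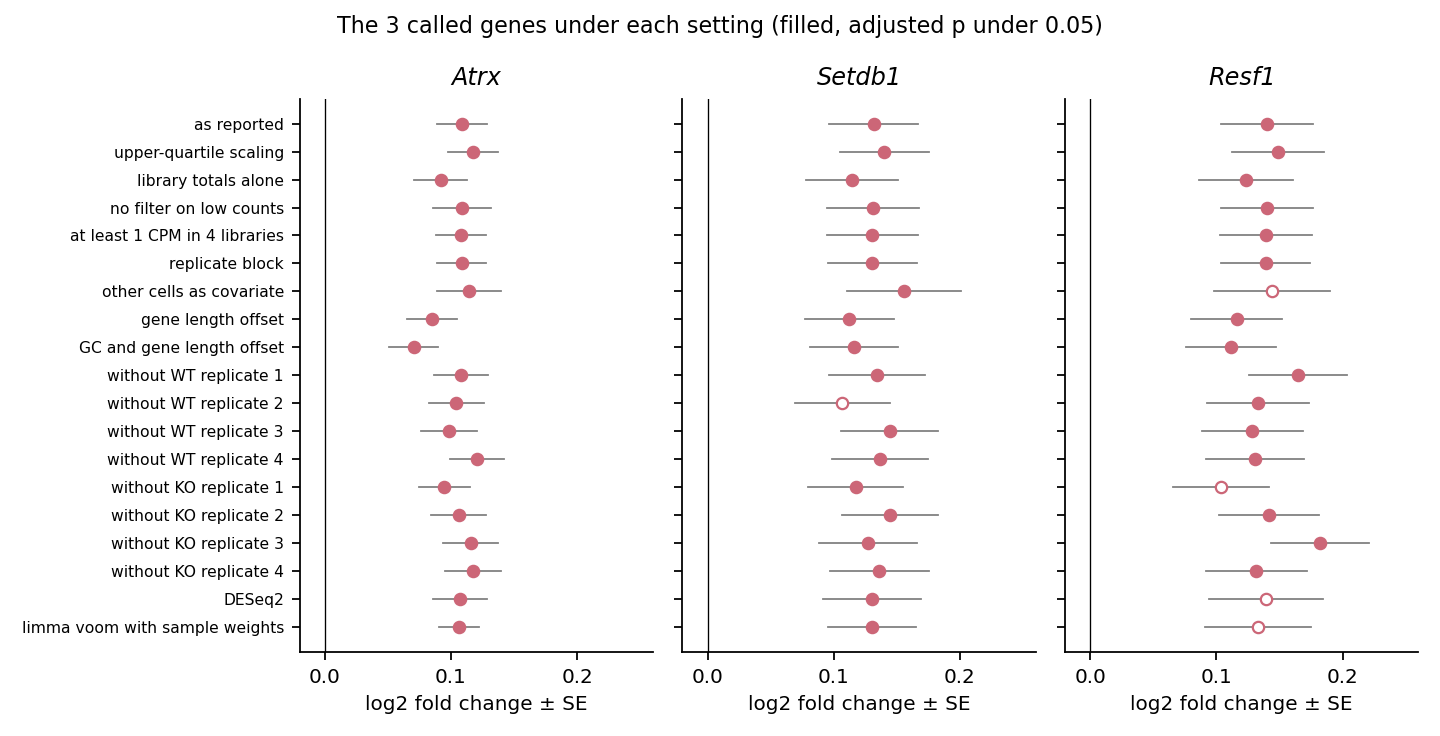
Log2 fold change with 1 standard error of Atrx, Setdb1 and Resf1 (x axes) as reported and under each of 18 alternatives (rows), filled where the adjusted p was under 0.05. Atrx stays filled throughout, Setdb1 is open without WT replicate 2, and Resf1 is open under 4 alternatives.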

How the data were processed

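The deposited values were raw counts of reads per gene, not normalized, in 1 table with Ensembl IDs. Libraries were made from total RNA with the SMARTer stranded total RNA-seq v2 pico input kit, per the labels' protocols. Per the submitters' processing notes, build GRCm38 was used with featureCounts, Subread, DESeq2 and STAR 2.5.2b; roles and settings are not given in the sources used here. The exonic lengths deposited beside the counts gave CPM per kb. Symbols came from GENCODE M21 (55141 of 55487 IDs). The mitochondrial gene mt-Co2 and its nuclear copy Gm28661 had 285160 and 285738 counts, so reads that map to both were either counted at each or divided between them.

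Counts were tested with edgeR 4.0.16 in R 4.3.3: default filterByExpr, TMM scaling, robust quasi-likelihood test of KO against WT with no other term, Benjamini-Hochberg adjustment over all genes tested. The test was run on simulated counts first, with changes set in genes from a wider range of abundance than that of the 10. It recovered 26 of 50 changes of 1.15-fold, a fold larger than the rises called among the 10. Of its 176 calls 14 were false. Alternatives used DESeq2 1.42.0, limma 3.58.1 and other scalings, filters, covariates and left-out libraries; the GC and length offset and the abundance range were added after seeing the data. The members and gene lists were chosen with earlier results of these data known. Named genes were the 10, Rhox10, 3 germ cell genes, up to 4 called genes of each class (or the 1 with the smallest p), 3 nearest to Setdb1 and genes overlapping a member. Depth limits precision: counting alone gives a coefficient of variation of 0.938% for Atrx and 4.02% for Daxx; without molecular identifiers, reads may be copies of 1 molecule.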

Additional observations from a re-analysis of the deposited data

Results flagged for a closer look

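Of 42 sets of 4 libraries examined (21 genes in each group), 1 held a library far from the others. Resf1 in WT replicate 1 was at 92.75 CPM, with the nearest other WT library at 86.88 CPM, a gap of 0.876 of the whole range of the group, above the critical value of Dixon's test. Chance alone sets apart about 1 in 20 such sets. Without this library the log2 fold change of Resf1 was 0.16 (edgeR adjusted p = 0.00181).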

How the results depend on the processing

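All genes tested gave 1193 calls, 611 with other cells as a covariate, 785 with DESeq2 and 898 to 1040 with a library left out. Of the 10 genes 3 were called, and 2 to 3 with a library left out or under any other setting. The other pathway genes gave 6 calls, 2 with other cells as a covariate, 3 with DESeq2, 3 with an offset for gene length, 3 with one for GC content and length, and 3 to 5 with a library left out. With either offset the 3 calls were all falls, and the 3 rises lost theirs. The rise of Atrx was called in 18 of 18 alternatives, that of Setdb1 in 17 and that of Resf1 in 14. Uncalled changes near 0 turned sign: Atf7ip with the length offset (-0.0060) and the GC and length offset (-0.0099), Mphosph8 with a library left out (-0.072 to 0.0076), and Daxx with other cells as a covariate (0.0078), the GC and length offset (0.00056) and a library left out (-0.033 to 0.023). The log2 fold change of Rhox10 was -0.42 to -0.14 with a library left out. The causes were not tested. Scaling moved the median of all genes by at most 0.017 (log2) but the balance of calls, 544 higher and 649 lower, to 426 and 836 with library totals alone and 633 and 555 with upper-quartile scaling. The replicate number as a block gave 1249 calls over all genes and 3 of the 10. Deviations of same-numbered libraries correlated at -0.003 to 0.045, and those of others at -0.082 to 0.093. No pairing by number was seen, though a weak one could be missed.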
